A study of Mus musculus with 6 samples.

Results

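Basement membrane genes were chosen by name, 8 of the 42450 genes in the deposited table. They were the laminin chain genes Lama1, Lama5, Lamb1, Lamb2 and Lamc1, the nidogen genes Nid1 and Nid2, and the perlecan gene Hspg2. The libraries were made from total RNA of mouse embryonic stem cells, of the male E14tg2a.4 line (WT, 3 libraries) and from a Srrm2 gene-trap derivative of the same line (Srrm2+/-, 3 libraries), to ask how a lower dose of Srrm2, a splicing factor of nuclear speckles, affects pluripotent cells. All 6 cultures were kept on gelatin in medium with serum and leukemia inhibitory factor (LIF). Before collection they were grown in serum-free medium with LIF, with no treatment beyond that. The Srrm2+/- cells are a single gene-trap line (CG0630) with the cassette in exon 1 of Srrm2, and per the study's methods they were frozen at earlier passages than the WT cells, in 3 batches that served as replicates. Genotype, clone and passage therefore cannot be told apart, and p-values measure the spread between these batches of 1 line each.

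Laminins are secreted heterotrimers of 1 alpha, 1 beta and 1 gamma chain that polymerize at the cell surface and carry the rest of the basement membrane. Nidogens bind the gamma chain and link the laminin network to collagen IV, and perlecan is a large proteoglycan whose heparan sulfate chains bind growth factors. In the peri-implantation embryo these proteins form the first basement membranes, on which the epiblast becomes a polarized epithelium, and stem cells that leave the naive state pass through a similar step.

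Library totals lay between 54151433 and 69933421 estimated counts. Each of the 8 genes had at least 882 estimated counts in every library, and all 8 passed the filter on low counts. Levels are given as CPM, estimated counts scaled to a common library size, and a gene was called at an edgeR adjusted p under 0.05 over all 18905 genes tested. Srrm2 itself fell from 95.7 ± 3.94 to 59.3 ± 3.02 CPM (SD, n = 3 each), that is by 0.69 on the log2 scale with a standard error (SE) of 0.05 (edgeR adjusted p 2.38e-05). Below, the log2 ratio is always that of Srrm2+/- over WT as fitted by edgeR, and a value after ± is the SD over the 3 libraries of a group. The stem cell label was checked on 8 marker genes. Of these 1 rose and 5 fell, where 13.6% of all genes tested were called higher and 11.7% lower. Nanog was among those that fell (482 ± 15.3 in WT, 292 ± 11.0 in Srrm2+/-), while Pou5f1 stayed uncalled at 847 ± 16.3 and 824 ± 11.7 CPM. All 8 were above 40 CPM in both groups, with a summed level of 4199 to 4311 CPM in WT and 3600 to 3693 CPM in Srrm2+/-.

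The basement membrane genes did not move as a block. Of the 8 genes, 2 rose (Lama5 and Lamb1), 3 fell (Lama1, Nid1 and Nid2) and 3 did not pass the test (Lamb2, Lamc1 and Hspg2). Over all genes tested, 25.3% were called, 13.6% higher and 11.7% lower, against 5 of the 8 members (62.5%). A rise to at least double with a call was seen for 0 of the 8 members and for 4.3% of all genes tested. Called genes were more frequent at higher levels. Above a mean log2 CPM of 4 there were 7061 genes, of which 33% were called. This limit was set after seeing that all 8 members lie above it. The median log2 ratio of the members was 0.050, against -0.0025 for all genes tested. In 6 of the 8 genes the groups did not overlap (3 higher and 3 lower in Srrm2+/-), which was so for 41.4% of all genes tested (21.4% higher, 20% lower). The summed level of the 8 genes was 487 to 538 CPM in WT, compared with 515 to 549 in Srrm2+/-, so the sums of the groups overlapped while single genes went both ways.

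**Figure D1:**
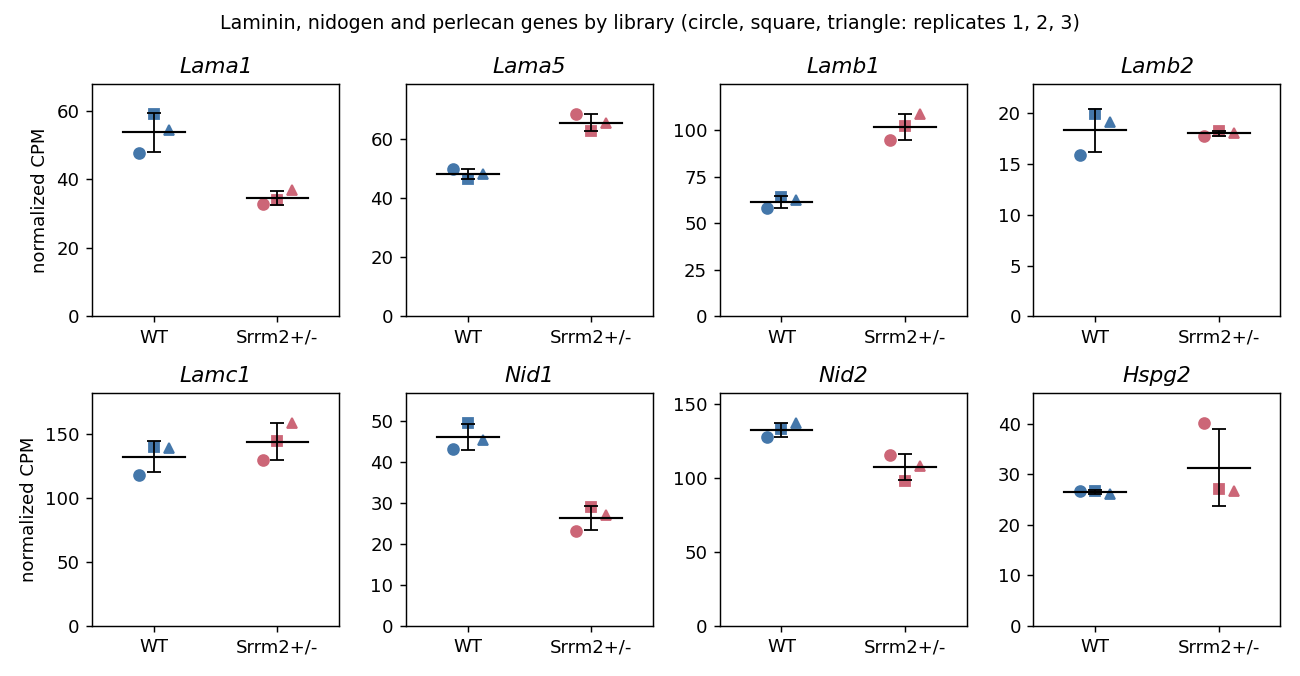
Normalized CPM (y axis, from 0) of the 8 genes in each library, with 1 panel per gene, WT in blue and Srrm2+/- in red; lines and bars are the mean and SD of 3 libraries. The groups are apart for Lama1, Lama5, Lamb1, Nid1 and Nid2, and the higher mean of Hspg2 in Srrm2+/- comes from replicate 1 at 40.1 CPM.

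Promoter sequence was taken from RefSeq (GRCm38.p6), which held windows for 5 of the 8 genes (Lama5, Lamb1, Lamb2, Nid1 and Hspg2). Those of the called genes are shown because they stand upstream of transcripts that moved in opposite directions, up for Lama5 and Lamb1 and down for Nid1. The bases printed run 5′ to 3′ on the gene's strand and end where the GENCODE gene begins, and capitals mark GC boxes (GGGCGG, either strand), the binding motif of Sp1-type factors. They are chr2:180225860-180226109 (minus strand) for Lama5, chr12:31265043-31265233 (plus strand) for Lamb1 and chr13:13437352-13437550 (plus strand) for Nid1.
Lama5: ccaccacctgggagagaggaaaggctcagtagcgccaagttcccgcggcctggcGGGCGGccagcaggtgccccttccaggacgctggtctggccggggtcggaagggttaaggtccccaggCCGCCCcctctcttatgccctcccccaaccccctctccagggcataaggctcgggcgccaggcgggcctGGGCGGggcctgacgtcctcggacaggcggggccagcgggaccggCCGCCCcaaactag
Lamb1: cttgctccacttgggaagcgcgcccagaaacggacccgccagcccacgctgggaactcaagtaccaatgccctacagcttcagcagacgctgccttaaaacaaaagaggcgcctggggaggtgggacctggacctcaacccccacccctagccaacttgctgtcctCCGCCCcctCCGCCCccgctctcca
Nid1: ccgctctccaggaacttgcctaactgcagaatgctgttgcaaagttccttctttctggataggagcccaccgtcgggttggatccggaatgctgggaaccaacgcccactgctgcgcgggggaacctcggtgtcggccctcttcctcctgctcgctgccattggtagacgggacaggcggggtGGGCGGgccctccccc
The windows hold 4 GC boxes for Lama5, 2 for Lamb1 and 1 for Nid1. Over the whole windows of 300 bases, 4 of the 5 genes had a GC box, against 35.7% of all 32851 promoter windows. The exception was Lamb2, whose window was 44% G or C, compared with 63.7% to 72.7% for the other 4. The CArG box, bound by the serum response factor, was in 0 of the 5 windows (1.63% of all windows), and the letters TATAAA were in 0 of the 5 (13.6% of all windows). The letters GGAATG, the core of the TEAD motif, were in the window of Nid1 alone (14.7% of all windows). All motifs were searched on both strands, and a match describes these letters, not a bound site.

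Among alpha chains, which set the receptor binding of a laminin, the 2 members went in opposite directions. Lama1 (ENSMUSG00000032796, chromosome 17, 67697259 to 67822647, plus strand) encodes the alpha chain of the laminin first laid down by the early embryo. It was at 47.9, 59.2 and 54.6 CPM in WT and at 32.9, 34.0 and 36.9 CPM in Srrm2+/-. Every Srrm2+/- library was below every WT library. The log2 ratio was -0.64 ± 0.08 (SE) at an adjusted p of 0.000475 (edgeR), which leaves 0.642 of the WT level. Lama5 (ENSMUSG00000015647, chromosome 2, 180176373 to 180225859, minus strand) encodes the alpha chain of the laminin that supports stem cell self-renewal in culture and is widespread in epithelia. It was at 50.1, 46.5 and 48.3 CPM in WT and at 68.7, 63.0 and 65.4 CPM in Srrm2+/-. All 3 Srrm2+/- libraries were above the WT libraries, by 1.36-fold (log2 ratio 0.44 ± 0.05 (SE), edgeR's adjusted p 0.000229).

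Per length, the alpha chains exchanged places. Dividing CPM by the kilobases (kb) of annotated exons, so that genes of unequal length can be compared, gave Lama1 5.56 ± 0.587 and Lama5 4.24 ± 0.160 CPM per kb in WT. In Srrm2+/- the order was turned, with Lama5 at 5.77 ± 0.248 and Lama1 at 3.57 ± 0.212 CPM per kb. The share of Lama1 in the sum of both was 52.9%, 60.0% and 57.0% in the WT libraries and 36.0%, 38.8% and 39.9% in the Srrm2+/- libraries. It was lower in each Srrm2+/- library, by 18.4 percentage points on average. Since Lama1 was lower and Lama5 higher in every Srrm2+/- library, this separation was fixed beforehand. The two-sided exact permutation p of 0.1, the smallest that 3 against 3 libraries allow, therefore adds nothing to both calls. The alpha sum itself was 9.81 ± 0.429 CPM per kb in WT, against 9.34 ± 0.262 in Srrm2+/-, and these ranges overlapped.

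Of the beta chains, which pair with the gamma chain before an alpha chain joins, 1 rose. Lamb1 (ENSMUSG00000002900, chromosome 12, 31265234 to 31329644, plus strand) was at 57.9, 64.0 and 62.4 CPM in WT and at 94.8, 102 and 109 CPM in Srrm2+/-. It had the largest rise of the 8 genes, 1.66-fold (log2 ratio 0.73 ± 0.06 (SE), edgeR's adjusted p 4.45e-05), with no overlap between the groups. Lamb2 (ENSMUSG00000052911, chromosome 9, 108479736 to 108490530, plus strand), the beta chain of the kidney filter and the neuromuscular junction, was at 15.9, 19.9 and 19.1 CPM in WT and at 17.8, 18.2 and 18.0 CPM in Srrm2+/-. Its groups overlapped, and its log2 ratio of -0.023 ± 0.08 (SE) at an adjusted p of 0.874 (edgeR) has a 95% interval of -0.21 to 0.16. Its sign turned without WT replicate 2 (0.045) or without WT replicate 3 (0.0099). The share of Lamb1 in the beta sum, per exon length, was 67.4 ± 1.49% in WT and 77.6 ± 1.07% in Srrm2+/-. The Srrm2+/- libraries lay at 76.6% to 78.7% and the WT libraries at 66.3% to 69.1% (two-sided exact permutation p 0.1, the smallest possible).

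Lamc1 (ENSMUSG00000026478, chromosome 1, 153218922 to 153332786, minus strand) encodes the gamma chain shared by most laminins and holds the nidogen binding site. It was at 118, 139 and 139 CPM in WT and at 130, 144 and 158 CPM in Srrm2+/-, so the groups overlapped. Its log2 ratio was 0.12 ± 0.08 (SE) at an adjusted p of 0.332 (edgeR), with a 95% interval of -0.066 to 0.31, which holds no change and a rise of up to 1.24-fold. Per exon length Lamc1 was the highest laminin chain in both groups, at 16.0 ± 1.48 CPM per kb in WT, against 17.4 ± 1.72 in Srrm2+/-. The alpha sum was 0.615 of Lamc1 in WT and 0.537 in Srrm2+/-. The beta sum was 0.577 of Lamc1 in WT and 0.761 in Srrm2+/-. With the longest transcript as the length of each gene, the beta sum was 0.801 of Lamc1 in WT and 1.1 in Srrm2+/-, because the annotated exons of Lamb1 span 9917 bases and its longest transcript 5784. Whether beta or gamma transcripts were in excess in Srrm2+/- thus depends on the length used.

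**Figure D2:**
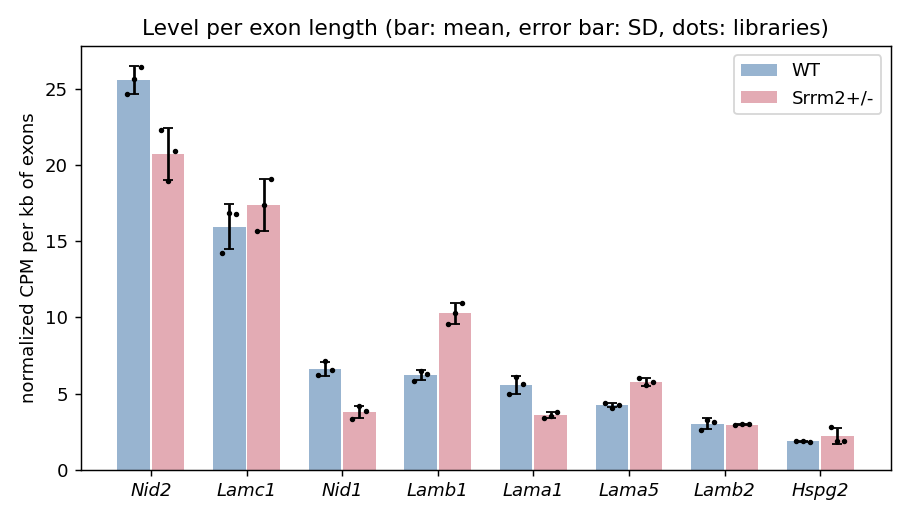
Level per exon length (y axis, normalized CPM per kb of annotated exons) of the 8 genes, ordered by their WT mean; bars are means, error bars SD and dots the 3 libraries of each group. Nid2 and Lamc1 stand highest in both groups, while Lama1 lies above Lama5 in WT (5.56 and 4.24) and below it in Srrm2+/- (3.57 and 5.77).

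Both nidogen genes fell. Nid1 (ENSMUSG00000005397, chromosome 13, 13437551 to 13512269, plus strand) was at 43.1, 49.3 and 45.3 CPM in WT and at 23.1, 28.9 and 26.9 CPM in Srrm2+/-. The groups were well apart, and Nid1 had the largest fall of the 8 genes, to 0.572 of the WT level (log2 ratio -0.81 ± 0.08 (SE), edgeR's adjusted p 0.000196). Nid2 (ENSMUSG00000021806, chromosome 14, 19751265 to 19811787, plus strand) was at 128, 133 and 137 CPM in WT and at 116, 98.1 and 108 CPM in Srrm2+/-. Its fall was smaller, to 0.810 of the WT level (log2 ratio -0.30 ± 0.06 (SE), edgeR's adjusted p 0.00607), again with no overlap. Nid2 was the highest of the 8 genes per exon length in both groups, at 25.6 ± 0.901 CPM per kb in WT, against 20.7 ± 1.69 in Srrm2+/-. In Srrm2+/- the libraries of Nid2 and Lamc1 overlapped per exon length, and in WT they did not. The nidogen sum was 2.02 times the level of Lamc1 in WT and 1.41 times in Srrm2+/-. The share of Nid1 in the nidogen sum went from 20.5 ± 1.01% to 15.5 ± 2.50% (two-sided exact permutation p 0.1, the smallest possible). Some counts of the nidogens could be exchanged with other genes. Matched on either strand, 7.87% of the 31-base words of Nid2 transcripts also occur in other genes (Rtraf, on the opposite strand). For Nid1 this share was 4.05%, mainly from Gm2399 and from the antisense gene Gm48682, which overlaps the Nid1 locus. The study's libraries were made with a stranded kit. For the other 6 genes this share was at most 0.181%.

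Hspg2 (ENSMUSG00000028763, chromosome 4, 137468769 to 137570630, plus strand), the perlecan gene, was at 26.7, 26.7 and 26.1 CPM in WT and at 40.1, 27.1 and 26.8 CPM in Srrm2+/-. The groups did not overlap, but 1 library, Srrm2+/- replicate 1, carried nearly all of the difference. Its log2 ratio was 0.24 ± 0.14 (SE) at an adjusted p of 0.254 (edgeR, 95% interval -0.076 to 0.56) and became 0.024 without that library. Hspg2 was the lowest of the 8 genes per exon length, at 1.85 ± 0.0242 CPM per kb in WT, against 2.19 ± 0.532 in Srrm2+/-.

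**Figure D3:**
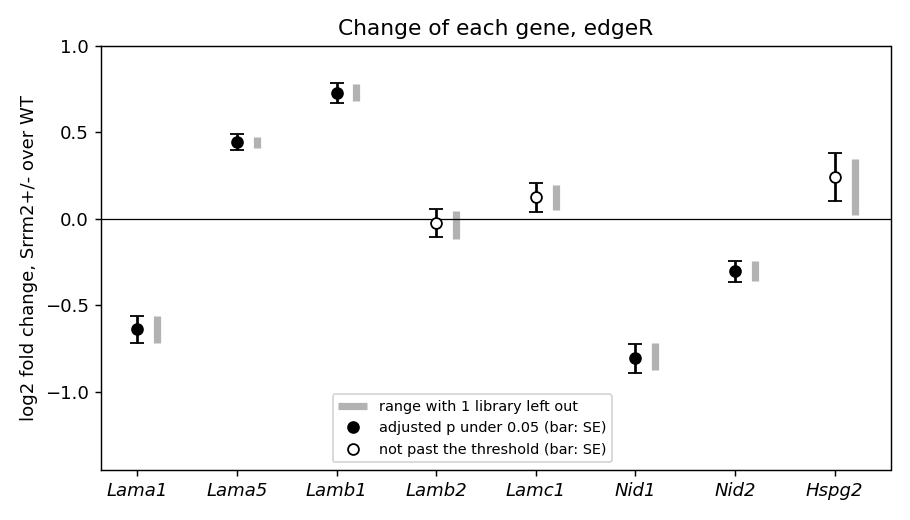
Log2 ratio of each gene in Srrm2+/- over WT (y axis) with its SE from edgeR; filled points passed an adjusted p under 0.05, and grey bars span the values with 1 library left out. The bars of Lamb2 reach both sides of 0, from -0.11 to 0.045, and those of the 5 called genes stay on their own side.

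In order of level per exon length, WT ran Nid2, Lamc1, Nid1, Lamb1, Lama1, Lama5, Lamb2 and Hspg2, and neighbouring genes overlapped between Nid1 and Lamb1 and between Lamb1 and Lama1. Srrm2+/- ran Nid2, Lamc1, Lamb1, Lama5, Nid1, Lama1, Lamb2 and Hspg2, with overlap between Nid2 and Lamc1 and between Nid1 and Lama1. The middle of the order was thus rearranged, while Lamb2 and Hspg2 stayed lowest. With the longest transcript as length, Lamb1 stood above Nid1 in WT, and the other places were as given.

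**Figure D4:**
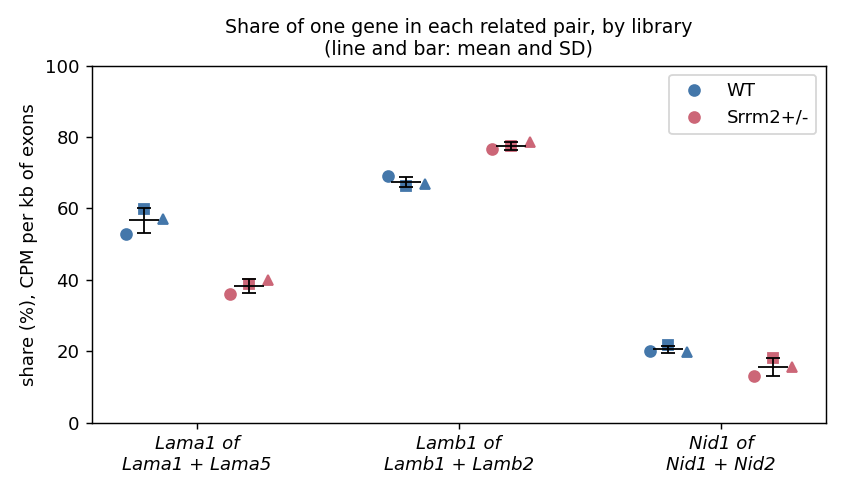
Share (y axis, percent, from CPM per kb of exons) of Lama1, Lamb1 and Nid1 in the sum with the related gene, by library, with mean and SD of 3 libraries. The Lama1 share drops from 56.6% to 38.2%, the Lamb1 share rises from 67.4% to 77.6% and the Nid1 share drops from 20.5% to 15.5%.

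The genes outside the 8 with the most similar profile were listed as a description, by Pearson correlation of log2 CPM over the 6 libraries among 8958 genes above a mean log2 CPM of 3. Since the libraries form only 2 groups, the values for the called members mostly follow the group difference. The 3 highest of 8958 values over 6 libraries are also high by selection, and none was tested. The genes closest to Lama1 were Depdc1b, Uggt1 and Man1b1 (0.995 to 0.9996). Those for Lama5 were Llgl2, a cell polarity gene, Mapkapk2 and Sec61a1 (0.997 each). Lamb1 was closest to Tjp1, which encodes the tight junction protein ZO-1, and to Kif21a and Wwc2 (0.996 to 0.999). Nid1 was closest to Nsd1, Azin1 and Gm14444 (0.997 to 0.998). For Nid2 they were Dock1, Erp44 and Gm5616 (0.994 to 0.996). Among members that were not called, Lamb2 was closest to Rpl11, Tsen15 and Terf2 (0.985 to 0.997) and Lamc1 to Fastkd3, Dnaja1 and Stard4 (0.983 to 0.996). Hspg2 was closest to Tmod3, Nucb1 and Pdxdc1 (0.975 to 0.978). The genes closest to these uncalled members had log2 ratios from -0.018 (Terf2) to 0.13 (Fastkd3). Their correlations thus also follow differences between single libraries.

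Of the 6 remaining laminin chain genes, 5 were tested, 3 rose (background 13.6%) and 0 fell, with a median log2 ratio of 0.73. Lamb3, a beta chain of the epithelial laminin of hemidesmosomes, rose from 2.77 ± 0.140 to 4.59 ± 0.402 CPM (log2 ratio 0.73 ± 0.12 (SE), edgeR's adjusted p 0.00247). Lama3, the alpha chain of that laminin, was at 4.83, 4.74 and 4.95 CPM in WT libraries, while Srrm2+/- libraries had 3.51, 4.10 and 4.51 CPM, a difference that was below the limit for a call (log2 ratio -0.26 ± 0.12 (SE), edgeR's adjusted p 0.156). Lama4, an alpha chain of endothelial and mesenchymal basement membranes, rose from 0.466 ± 0.103 to 1.46 ± 0.216 CPM (log2 ratio 1.64 ± 0.23 (SE), edgeR's adjusted p 0.00107).

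Of 25 other basement membrane components, 22 were tested, 10 rose (background 13.6%) and 2 fell (background 11.7%), with a median log2 ratio of 0.48. The largest log2 ratios were in collagen IV, the network that nidogens join to laminin. Col4a1 rose from 1.71 ± 0.687 to 18.1 ± 2.60 CPM, a log2 ratio of 3.40 ± 0.25 (SE) at an adjusted p of 2.55e-05 (edgeR). Its partner Col4a2 rose from 1.18 ± 0.148 to 10.1 ± 1.72 CPM, a log2 ratio of 3.09 ± 0.16 (SE) at an adjusted p of 3.70e-06 (edgeR). Col4a6 rose from 0.170 ± 0.118 to 1.08 ± 0.242 CPM, with 14, 2 and 12 counts in the WT libraries. Its log2 ratio was 2.66 ± 0.48 (SE) at an adjusted p of 0.00377 (edgeR). Of the 6 collagen IV genes, all tested, 4 rose and 2 did not pass the test. The latter, Col4a3 (log2 ratio -0.17, edgeR adjusted p 0.85) and Col4a4 (0.47, edgeR adjusted p 0.427), named after their values were seen, had overlapping groups and means under 1 CPM. The WT means of Col4a6 and of Col4a5 (0.765 CPM), also named after its values were seen, were under 1 CPM as well. The 2 genes that fell, named after their values were seen, were the fibulin gene Fbln1 (log2 ratio -0.99, SE 0.08) and the netrin gene Ntn1 (-0.59, SE 0.08), with edgeR adjusted p of 3.63e-05 and 0.000765.

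Of 14 laminin receptor genes, all tested, 9 rose (background 13.6%) and 0 fell, with a median log2 ratio of 0.47. Itga3, the alpha subunit of an integrin that binds laminins with the Lama5 chain, rose from 5.26 ± 0.443 to 33.3 ± 1.48 CPM, a log2 ratio of 2.67 ± 0.07 (SE) at an adjusted p of 1.32e-07 (edgeR). Itga7 and the syndecan gene Sdc3 rose from below 1 CPM on average, with log2 ratios of 1.29 (SE 0.21, edgeR adjusted p 0.00251) and 1.14 (SE 0.24, edgeR adjusted p 0.00738). The dystroglycan glycosylation enzymes build the sugar on dystroglycan that binds laminin alpha chains. Of 13, 2 rose and 1 fell (background 13.6% and 11.7%), a share near that of all genes, at a median log2 ratio of 0.068. The kinase gene Pomk was lower (-0.39, SE 0.07, edgeR adjusted p 0.00473). The glycosyltransferase gene Large2 was at 0.31 (SE 0.09, edgeR adjusted p 0.0413). Its call was lost whichever library was left out, when the number of risen genes in this list was 0 to 1. The number was 0 without WT replicate 2 and without Srrm2+/- replicate 1.

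The enzymes that make and edit heparan sulfate, the sugar carried by perlecan, were a list of 25 genes. Of these 21 were tested, 6 rose (background 13.6%) and 1 fell (background 11.7%), with a median log2 ratio of 0.027. With 1 library left out the number of risen genes was 4 to 5. Hs6st2, a sulfotransferase, rose from 3.25 ± 0.498 to 10.1 ± 0.171 CPM (log2 ratio 1.63 ± 0.12 (SE), edgeR's adjusted p 2.49e-05). The sulfatase gene Sulf1 rose less (0.55, SE 0.06, edgeR adjusted p 0.000213), and the epimerase gene Glce was lower (-0.57, SE 0.08, edgeR adjusted p 0.000862).

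**Figure D5:**
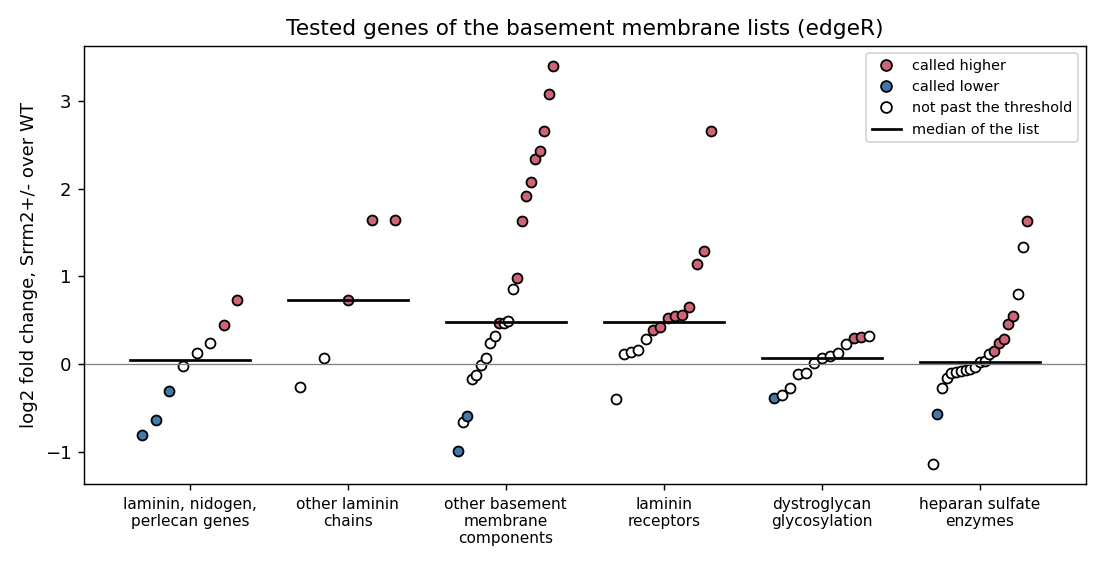
Log2 ratio in Srrm2+/- over WT (y axis) of every tested gene in 6 lists, each point 1 gene, red where called higher, blue where called lower and white where not past the threshold; horizontal lines are list medians. The 8 laminin, nidogen and perlecan genes spread on both sides of 0 (median 0.050), while the other laminin chains (0.73), other basement membrane components (0.48) and laminin receptors (0.47) have higher medians.

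Because laminin genes are strongly expressed in extraembryonic endoderm and in other differentiated cells, markers of such cells were measured in the same libraries. In bulk samples, fewer cells of a type and less RNA per cell cannot be told apart. Of 14 extraembryonic endoderm markers, 9 were tested, 3 rose (Lrp2, Dab2 and Thbd) against a background of 13.6%, and 0 fell. Their summed level was 30.2 to 33.4 CPM in WT and 68.8 to 82.1 CPM in Srrm2+/-, of which Lrp2 alone gave 28.7 and 72.5 CPM on average. The defining endoderm factors were low, with Gata4 at 0.949 and 0.946 CPM, Gata6 at 0.124 and 0.242 CPM and Sox17 at 0.0846 and 0.105 CPM (means of WT and Srrm2+/-), and Afp had 0 counts in every library. Of 12 fibroblast markers, 9 were tested, 6 rose (background 13.6%) and 0 fell. Their sums lay at 5.94 to 6.13 CPM in WT libraries and at 11.8 to 15.4 CPM in Srrm2+/- libraries. The largest rises were those of the collagen gene Col1a2 (0.197 and 2.96 CPM, means of WT and Srrm2+/-), Twist2 (0.0240 and 0.270 CPM) and Postn (0.103 and 0.742 CPM), and the defining marker Dcn had 0 counts in every WT library and at most 4 in Srrm2+/-. Of 7 endothelial markers, 5 were tested, 2 rose (background 13.6%) and 2 fell (background 11.7%), with sums of 94.4 to 97.5 and 70.0 to 75.3 CPM. Pecam1, which stem cells also express, gave most of them and fell from 88.8 to 65.8 CPM, and Kdr rose from 0.102 to 1.05 CPM on average. Esam was at 0.276 and 0.665 CPM on average, and its call (edgeR adjusted p 0.044) was lost under 6 of 13 alternatives, with adjusted p of up to 0.131. Of 8 trophoblast markers, 5 were tested, 2 rose (Krt7 and Eomes, background 13.6%) and 0 fell. The call of Eomes (edgeR adjusted p 0.0387) was lost under 8 of 13 alternatives, with adjusted p of up to 0.139. The trophoblast markers had sums of 4.82 to 5.41 and 9.79 to 10.7 CPM, of which Krt7 alone gave 2.81 and 7.23 CPM on average. Tpbpa had 0 counts in every library. The part of these cell types in the laminin, nidogen and perlecan results was not tested.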

How the data were processed

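Total RNA-seq of 3 WT and 3 Srrm2+/- cultures was analysed, grouped by their titles. Using kallisto 0.46.1 and the GENCODE M24 transcripts (mm10), the authors quantified reads without alignment, and what they deposited are raw estimated counts summed by gene. These were rounded to whole numbers. The library kit was stranded, and the strand setting of the quantification was not given in the sources used here. Symbols, positions and exon lengths came from GENCODE M21 (GRCm38), where 42156 of 42450 identifiers matched. Genes past filterByExpr (minimum count 10, minimum total 15) were tested with edgeR 4.0.16 (TMM, glmQLFTest, two-sided, genotype as sole term, all 6 libraries) and adjusted by the Benjamini-Hochberg method over 18905 genes. The SE was the log2 ratio's size divided by the square root of F, and 95% intervals used the t distribution with the fit's degrees of freedom. CPM used TMM-scaled totals.

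The members and gene lists were chosen with earlier results of these data known. Named were Srrm2, all members, marker genes, up to 3 called genes per list with the largest change, and the 3 genes most alike to each member. Alternatives were RLE, upper quartile, DESeq2 1.42.0, limma 3.58.1 voom, other filters, call rules and lengths, a table without mitochondrial, rRNA and short RNA genes, a replicate block and each library left out. Scripts were tested on simulated counts. Depth was 54151433 to 69933421 counts per library and 882 to 9924 counts per member. Protein sequences were not analysed here, and single values of some list genes are not reported here.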

Additional observations from a re-analysis of the deposited data

How the results depend on the processing

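The calls of Lama1, Lama5, Lamb1, Nid1 and Nid2, and of Srrm2, kept their direction and an adjusted p under 0.05 in each of the 14 alternatives run per gene. Lamc1, Lamb2 and Hspg2 were not called under any of the same 14. With 1 library left out, the log2 ratio was -0.72 to -0.56 for Lama1, 0.41 to 0.47 for Lama5, 0.68 to 0.78 for Lamb1, -0.88 to -0.72 for Nid1, -0.36 to -0.24 for Nid2, 0.049 to 0.20 for Lamc1, 0.024 to 0.34 for Hspg2 and -0.11 to 0.045 for Lamb2. Lamb2 reversed to 0.045 when WT replicate 2 was left out and to 0.0099 when it was WT replicate 3. The cause was not tested. The difference in share with 1 library left out was -20.3 to -16.7 percentage points for Lama1, 9.63 to 11.04 for Lamb1 and -6.23 to -3.73 for Nid1. Using the longest transcript as length, it was -18.4 for Lama1, 7.97 for Lamb1 and -5.23 for Nid1. Over all genes, 1574 were higher and 1205 lower at an adjusted p under 0.01, and 813 and 340 with a log2 ratio of at least 1 in size, of which 0 higher and 0 lower were members, whose log2 ratios lay between -0.81 and 0.73. The number of risen dystroglycan enzymes was 1 with DESeq2, 1 with the filter of 1 count and 0 to 1 with a library left out, when 1 to 2 fell. The stricter filter, under which fewer genes were tested, left 1 risen endoderm marker, 3 fibroblast markers, 1 endothelial marker and 1 trophoblast marker. Risen trophoblast markers numbered 1 with DESeq2. With a library left out, 1 to 2 endothelial and 1 to 2 trophoblast markers rose and 0 to 1 fibroblast markers fell. With the longest transcript as length, Lamb1 stood at 10.6 in WT and 17.6 CPM per kb in Srrm2+/-. Deviations from the group means correlated at -0.0285, -0.0337 and -0.03 between libraries of the same number, so replicate numbers were not taken as pairs. In the fit with a replicate block, 2281 genes were higher and 1885 lower, 1 dystroglycan enzyme, 1 endothelial and 1 trophoblast marker rose, and every call among the 8 members was as without it.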
